A study of Mus musculus with 12 samples.

Results

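The hippocampus of presenilin double knockout mice was compared between night and day. These were 6 libraries (3 Night DKO and 3 Day DKO) of the 12 in the series, chosen by their labels for genotype and time. DKO is the label of the conditional double knockout of the presenilin genes. The Day DKO and Night DKO mice carried that knockout and were killed at 9 a.m. and at 9 p.m. under sodium pentobarbital (30 mg per kg). The Day WT and Night WT mice, 3 libraries each, are labelled WT and were killed at the same hours under the same drug. Age, sex, strain, light schedule and the Cre driver of the deletion are not given in the labels used here. Nothing there states that each library came from a separate mouse, so p-values reflect the spread of these libraries alone, which may be technical.

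Presenilins are the catalytic subunits of gamma-secretase, the protease that cuts Notch and the amyloid precursor protein within the membrane. The circadian clock is a transcriptional loop. CLOCK and BMAL1 (the product of Arntl) activate genes through E-boxes, among them the Per, Cry and Nr1d repressors that later shut the loop down and Dbp, an output factor that binds D-boxes. REV-ERB alpha and beta (Nr1d1 and Nr1d2) repress Arntl through ROR elements. Mouse forebrain tissue is known to express these genes with a daily rhythm.

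Psen2 was low in all 6 DKO libraries, at 0.52, 0.378 and 0.275 FPKM by day and 0.486, 0.351 and 0.594 FPKM at night, against 1.47 to 3.64 FPKM in the 6 WT libraries. FPKM is the number of fragments scaled to transcript length and library size. The DKO values lay below all WT values. Psen2 was not called between night and day in DKO (log2 difference 0.09, adjusted p = 0.833).

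The sum of FPKM over a DKO library was 155504 to 172457. The labels give the tissue as brain and the series text as hippocampus. Prox1 and C1ql2 of the dentate gyrus were present in every DKO library, at 3.47 to 5.19 and 11.7 to 28.1 FPKM. So were the pyramidal cell marker Wfs1 (18.8 to 26.1 FPKM) and Zbtb20 of hippocampal projection neurons (5.66 to 7.87 FPKM). The listed markers of neighbouring brain regions, tested or not, summed to 30.9 to 36.9 FPKM by day and 40.9 to 43.3 FPKM at night in DKO. These ranges did not overlap. Of the 10 tested, none was called, and 4 had an unadjusted p under 0.05 (limma), 3 of them higher and 1 lower at night. Over all genes tested that share was 15.1%. Day DKO replicate 2 stood apart from the other 5 DKO libraries by its very low choroid plexus transcripts. Night DKO replicate 1 was low for disease-associated microglia genes. Y-linked genes were present in all 6 DKO libraries, and 1 Night WT library had a summed level of 0.0308 FPKM for the sex-linked list, against 14.1 to 18.1 FPKM in Night DKO. In whole tissue, fewer cells of a type and less RNA per cell cannot be told apart.

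Of 12689 genes tested, 38 (0.299%) differed between night and day in DKO at an adjusted p under 0.05 (limma, Benjamini-Hochberg over all genes tested). Of these, 23 (0.181%) were higher at night and 15 (0.118%) were lower. Leaving out 1 DKO library gave 22 (Day DKO replicate 2), 21 (Day DKO replicate 3), 19 (Night DKO replicate 2) and 19 calls (Night DKO replicate 3), and 34 and 38 without the first replicates of day and night. A total of 9 genes were called in all 30 settings run, namely Dbp, Nr1d1, Nr1d2, Tspan4 and Coq10b on the higher side and Arntl, Fabp7, Akt2 and Rbm28 on the lower. Among clock genes, Dbp was 4.08-fold higher at night in mean FPKM and Arntl 2.06-fold higher by day. Outside the clock loop, the cold-inducible Rbm3, the tetraspanin Tspan4, the extracellular matrix genes Mgp, Timp3 and Efemp2 and the helix-loop-helix inhibitor Id3 were higher at night. Fabp7, Akt2, the ribosome assembly factor Rbm28, the neuronal genes Vgf, Homer1 and Pcdh8 and the collagen gene Col4a1 were lower at night.

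Sequence is shown for 4 called genes whose windows held circadian motifs and whose time differences are described next. Each window runs from base 250 upstream of a RefSeq start site (GRCm38.p6) toward it and stops before any transcribed base annotated for the gene. Ciart is on the minus strand at chr3:95882258-95882478, with 3 E-boxes (CACGTG) in capitals. Per3 is on the minus strand at chr4:151044708-151044915, with 2 D-boxes in capitals. Coq10b is on the plus strand at chr1:55052520-55052769, with a D-box and then an E-box in capitals. Fabp7 is on the plus strand at chr10:57784673-57784880, with the core of a ROR element (TAGGTCA, read on the other strand) in capitals.
Ciart: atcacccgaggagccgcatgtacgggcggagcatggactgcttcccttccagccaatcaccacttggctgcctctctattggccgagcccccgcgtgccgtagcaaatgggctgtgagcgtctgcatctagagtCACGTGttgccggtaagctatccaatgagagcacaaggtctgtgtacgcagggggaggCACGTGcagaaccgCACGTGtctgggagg
Per3: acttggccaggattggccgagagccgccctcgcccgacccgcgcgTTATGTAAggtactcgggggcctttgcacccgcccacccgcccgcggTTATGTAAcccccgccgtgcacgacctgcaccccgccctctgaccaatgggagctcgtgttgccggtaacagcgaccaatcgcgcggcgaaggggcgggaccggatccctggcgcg
Coq10b: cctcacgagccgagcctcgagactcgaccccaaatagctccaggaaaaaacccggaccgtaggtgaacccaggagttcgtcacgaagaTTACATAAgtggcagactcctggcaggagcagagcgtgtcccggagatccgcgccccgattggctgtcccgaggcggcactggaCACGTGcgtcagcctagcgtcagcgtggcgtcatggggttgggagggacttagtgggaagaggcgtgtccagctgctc
Fabp7: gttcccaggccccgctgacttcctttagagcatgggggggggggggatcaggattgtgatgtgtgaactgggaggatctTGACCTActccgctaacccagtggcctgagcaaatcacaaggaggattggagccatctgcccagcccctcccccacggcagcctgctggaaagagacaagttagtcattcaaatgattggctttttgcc

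The printed motifs do not overlap each other. The E-boxes of Ciart lay 111, 53 and 39 bases upstream of the start site. The D-boxes of Per3 lay 198 and 151 bases upstream. In Coq10b the D-box lay 155 and the E-box 73 bases upstream, and in Fabp7 the ROR core lay 165 bases upstream. On either strand, CACGTG was in 6.02% of all 32851 RefSeq windows of 250 bases, a D-box (TTATGTAA, TTACATAA, TTATATAA or TTACGTAA, of which TTATGTAA and TTACATAA are each other's reverse complement) in 1.43% and TAGGTCA in 2.23%. The search also covered CACGTT (an E-box variant, in 3.85% of windows), TGACGTCA (the CRE, in 1.55%) and CCAAT (in 33.8%). Windows were found for 20 of the 23 genes higher at night and 12 of the 15 lower at night. Of the 10139 genes tested that had a window, 10% had an E-box in one, 1.11% a D-box and 1.79% a ROR core. An E-box was in the windows of 3 of those 20 genes (Ciart, Coq10b and Tspan4, 46 bases upstream in the last), and a D-box in 3 (Per3, Coq10b and Gkn3). Among the 12 genes lower at night, 2 had an E-box (Inf2 and Mical2) and 1 a ROR core (Fabp7). The E-box counts lie near the share over all genes tested, and with so few genes nothing is read from the other counts. The windows of Arntl, Dbp and Nr1d2 held none of the E-box, D-box or ROR core letters, which says only that these letters are not in those stretches.

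Dbp (chr7:45705100-45710203) had the largest difference of all called genes. Its level was 4.09, 7.11 and 4.0 FPKM in the Day DKO libraries and 17.6, 23.3 and 21.2 FPKM in the Night DKO libraries. The lowest night library was thus above the highest day library by a wide margin. The difference on the log2(FPKM + 1) scale was 1.87 ± 0.16 (SE, adjusted p = 0.000194), and 1.84 after scaling by the median of ratios. In WT the means were 8.50 ± 1.07 FPKM by day and 17.6 ± 1.07 FPKM at night (SD, n = 3), a difference of 0.97. The Day DKO libraries lay below all other 9 libraries, whereas the Night DKO range overlapped the Night WT range of 16.4 to 18.5 FPKM. The DKO difference exceeded the WT difference by 0.89, which did not pass the test of the interaction (adjusted p = 0.463).

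The other output factors of the same bZIP family moved less. Hlf measured 9.41, 9.14 and 8.28 FPKM by day and 11.7, 11.5 and 10.4 FPKM at night (0.30, adjusted p = 0.0642). Tef was at 35.9, 35.7 and 32.9 FPKM by day and 41.2, 44.9 and 42.5 FPKM at night (0.29, adjusted p = 0.0836). Day and night did not overlap for either gene, but neither passed the test. Nfil3, which binds D-boxes as a repressor, lay the other way, at 1.92, 1.65 and 1.71 FPKM by day and 1.41, 1.05 and 1.04 FPKM at night (-0.35, adjusted p = 0.142). Of these 4 tested factors, 1 was therefore called.

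The clock repressor list also holds the casein kinase genes Csnk1d and Csnk1e. Of its 13 genes tested, 5 were called higher at night and none lower. All 13 had a positive difference, with a median of 0.36. Among all genes tested, 58.7% had a positive difference and the median was 0.023. Libraries of day and night did not overlap for 8 of the 13, against 19.4% of all genes tested (12.9% with night higher and 6.44% with night lower). Nr1d2 (chr14:18204056-18239106), which encodes REV-ERB beta, was at 9.29, 10.1 and 7.54 FPKM by day and 18.1, 17.3 and 19.1 FPKM at night. Nr1d1 (chr11:98767932-98775377), which encodes REV-ERB alpha, was at 4.74, 5.62 and 4.86 FPKM by day and 8.60, 12.1 and 9.98 FPKM at night. The means were 2.03-fold and 2.02-fold higher at night, without overlap. Their differences were 0.95 ± 0.09 (adjusted p = 0.000319) and 0.88 ± 0.12 (adjusted p = 0.00662), and both were called whichever library was left out.

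Ciart (chr3:95878500-95882257), a repressor that binds BMAL1, was at 0.577, 1.22 and 0.673 FPKM by day and 2.05, 3.76 and 2.54 FPKM at night. It was low at both times, and replicate 2 was the highest of its group at each. The mean was 3.38-fold higher at night and the difference 1.05 ± 0.16 (adjusted p = 0.0150). Leaving out Day DKO replicate 1, Day DKO replicate 3 or Night DKO replicate 3 ended the call, with an adjusted p of up to 0.0578. Per2 (chr1:91415977-91459351) was at 3.28, 3.37 and 2.81 FPKM by day and 4.42, 4.78 and 4.57 FPKM at night (0.43 ± 0.07, adjusted p = 0.0179). Per3 (chr4:150997018-151044707) was at 1.94, 1.53 and 1.20 FPKM by day and 2.78, 2.57 and 2.56 FPKM at night (0.52 ± 0.09, adjusted p = 0.0219). Neither Per gene overlapped between day and night. Per2 was called in 9 of the 12 fits that each left out 1 library (adjusted p up to 0.0917, without Night DKO replicate 2) and Per3 in 7 of 12 (up to 0.0833, without the same library).

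The genes of the repressor list that were not called were all higher in mean at night. Bhlhe41, an E-box-binding repressor, was at 2.28, 2.41 and 2.27 FPKM by day and 2.83, 3.51 and 3.81 FPKM at night (0.40, adjusted p = 0.0642). Per1 was at 4.37, 3.92 and 3.06 FPKM by day and 5.61, 5.63 and 4.21 FPKM at night (0.36, adjusted p = 0.200), with 1 night library inside the day range. The cryptochromes differed by 0.18 (Cry1, adjusted p = 0.233) and 0.12 (Cry2, adjusted p = 0.527). Bhlhe40 differed by 0.17, and the casein kinase genes Csnk1e and Csnk1d by 0.09 and 0.05.

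On the activating side, 1 of 5 tested genes was called. Arntl (chr7:113178471-113314126) was at 2.89, 3.25 and 3.41 FPKM by day and 1.67, 1.45 and 1.5 FPKM at night. Every Day DKO library lay above the other 9 libraries of the series. The difference was -0.72 ± 0.06 (adjusted p = 0.000194) in DKO and -0.29 in WT, where the means were 2.25 ± 0.0673 FPKM by day and 1.65 ± 0.0529 FPKM at night. The interaction was -0.42 (adjusted p = 0.396). Clock, the partner of BMAL1, was at 9.05, 7.68 and 8.54 FPKM by day and 8.07, 7.73 and 8.42 FPKM at night, a difference of -0.05 (adjusted p = 0.740). Its paralog Npas2 (0.04), Rora (0.17) and Rorb (-0.02) also overlapped between day and night, with adjusted p of 0.940, 0.360 and 0.939. The signs of Npas2 and Rorb changed with the settings.

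**Figure D1:**
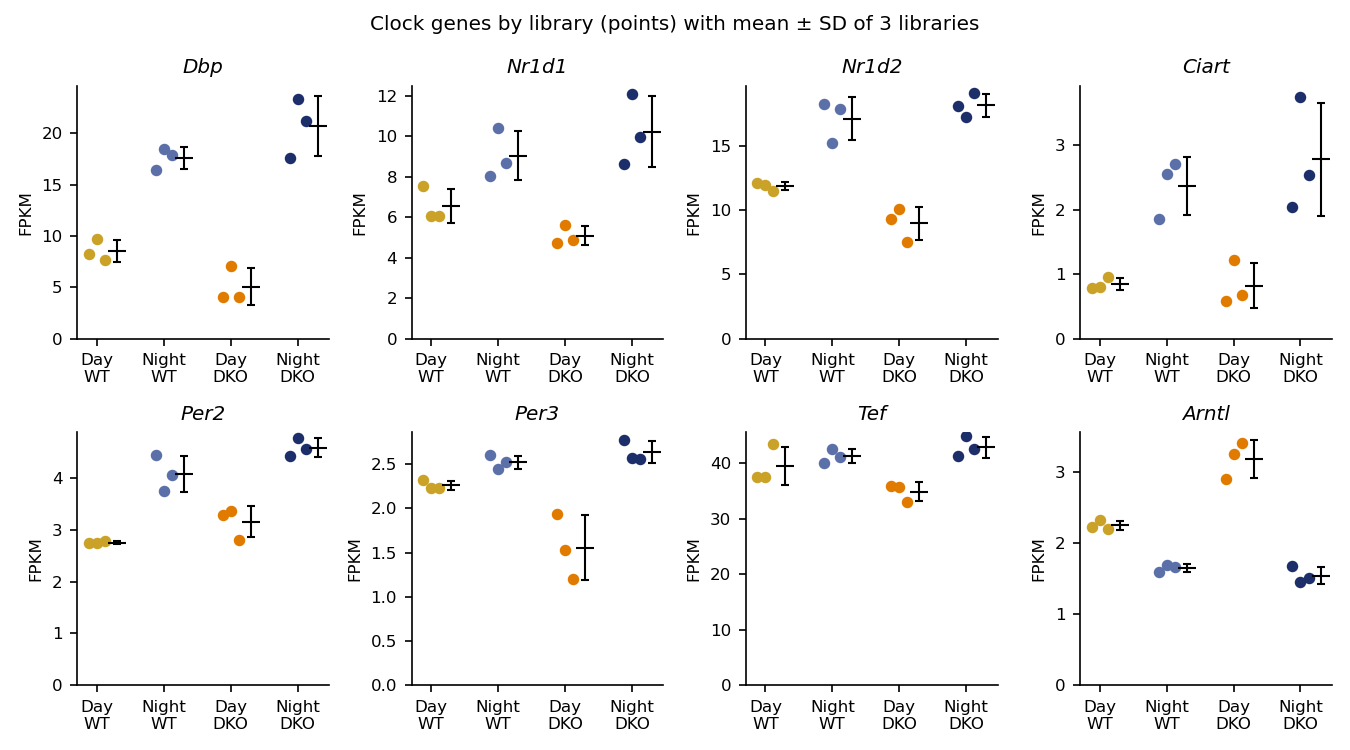
FPKM (vertical axes, starting at 0) of 8 clock genes in each library (points; colours mark the 4 groups) with the mean ± SD of 3 libraries (black). Night DKO lies above Day DKO without overlap for 7 genes and below it for Arntl, and the Day DKO values of Dbp, Nr1d1, Nr1d2, Per3 and Arntl lie beyond all other libraries.

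Rbm3 and Cirbp encode RNA-binding proteins induced by a small drop in temperature and are known to follow the daily rhythm of body temperature. Rbm3 (chrX:8138975-8145880) was at 2.45, 3.85 and 3.63 FPKM by day and 8.63, 7.10 and 6.66 FPKM at night, 2.25-fold higher in the mean. The difference of 0.98 ± 0.15 (adjusted p = 0.0137) was close in size to that in WT (0.99, with an interaction at adjusted p = 0.995), and it lost its call without Night DKO replicate 2 (adjusted p = 0.0508). Cirbp was at 13, 21.4 and 18.5 FPKM by day and 29.4, 29.8 and 23.4 FPKM at night (0.63, adjusted p = 0.173). Both genes were higher in every night library than in any day library, and 1 of the 2 was called. Of 14 cytosolic heat shock proteins none was called (limma; 2 at an unadjusted p under 0.05), and Hsph1 was the nearest to a call (-0.36, adjusted p = 0.0636).

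Tspan4 and Cd151 are tetraspanins, membrane proteins that organise integrins and other partners. They lie 3754 bases apart on chromosome 7 (chr7:141475236-141493427 and chr7:141467362-141471481). Tspan4 was at 1.87, 1.86 and 1.94 FPKM by day and 4.09, 4.47 and 4.51 FPKM at night. This was among the tightest differences, 2.31-fold in the mean and 0.89 ± 0.07 on the log2 scale (adjusted p = 0.000194), and WT showed 0.76. Cd151 was at 5.17, 5.35 and 5.22 FPKM by day and 6.99, 7.91 and 7.46 FPKM at night (0.43 ± 0.08, adjusted p = 0.0328). Its call held in 6 of the 12 fits without 1 library (adjusted p up to 0.142, without Night DKO replicate 2). Of 20 tetraspanins tested, these 2 were called higher and none lower, against 0.181% and 0.118% of all genes tested. The list median was 0.09 (0.03 with the mean level of choroid plexus genes as a covariate). At an unadjusted p under 0.05 (limma), 8 were higher and 3 lower at night, against 10.3% and 4.79% of all genes. Without overlap, 8 were higher and 2 lower, against 12.9% and 6.44%. Cd63, a tetraspanin of late endosomes and exosomes, was at 18.4, 16.9 and 18.2 FPKM by day and 23.2, 21.1 and 23.8 FPKM at night (0.33, adjusted p = 0.121).

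Coq10b (chr1:55052770-55072702) encodes a coenzyme Q binding protein of mitochondria. It was at 6.80, 7.51 and 7.03 FPKM by day and 12.1, 12.2 and 10.2 FPKM at night, 1.62-fold higher in the mean (0.62 ± 0.08, adjusted p = 0.00564). Night and day were well separated in both genotypes, with 0.54 in WT. Of 13 coenzyme Q genes it was the only one called, and the list median was 0.00. Mthfd1l (0.50 ± 0.07, adjusted p = 0.00643), a mitochondrial folate enzyme, rose from 0.928 ± 0.0319 FPKM by day to 1.74 ± 0.204 FPKM at night. Fahd2a, an enzyme of the fumarylacetoacetate hydrolase family, differed by 0.45 (4.05 ± 0.418 by day and 5.89 ± 0.196 FPKM at night, adjusted p = 0.0137), and lost its call without Night DKO replicate 2 (adjusted p = 0.0544).

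Genes of the extracellular matrix and of the leptomeninges, the thin membranes over the brain surface, mostly had higher values at night. Of 18 such genes tested, 2 were called higher and none lower, 15 had a positive difference, 11 were higher without overlap, and the median was 0.47. Of all genes tested, 58.7% had a positive difference and 12.9% were higher without overlap. Crip1 (chr12:113152012-113153879), a small LIM protein, was at 8.91, 6.66 and 10.2 FPKM by day and 17.5, 18.3 and 16.4 FPKM at night (0.96 ± 0.13, adjusted p = 0.00662). Mgp (chr6:136872435-136875823), an inhibitor of calcification, was at 20.3, 21.6 and 18.2 FPKM by day and 40.7, 34.2 and 43.9 FPKM at night (0.94 ± 0.15, adjusted p = 0.0182). The means were 2.03-fold and 1.97-fold higher at night, without overlap. Bmp7, a secreted growth factor, was at 1.19, 1.14 and 1.13 FPKM by day and 1.84, 2.03 and 2.33 FPKM at night (0.51, adjusted p = 0.0547). Lum and Dcn, defining markers of leptomeningeal fibroblasts, differed by 0.35 (adjusted p = 0.284) and -0.09 (adjusted p = 0.751), and Slc6a13, the third, by -0.28 (adjusted p = 0.465). The defining markers thus did not share 1 direction. The list summed to 103, 89.6 and 96.4 FPKM in Day DKO and 170, 157 and 157 FPKM in Night DKO, against 157 to 214 FPKM in Day WT and 199 to 246 FPKM in Night WT.

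Timp3, an inhibitor of metalloproteinases, rose from 12.6 ± 0.704 to 18.5 ± 1.04 FPKM (0.52 ± 0.08, adjusted p = 0.0179), and Efemp2, a protein of elastic fibres, from 2.08 ± 0.255 to 3.70 ± 0.412 FPKM (0.61 ± 0.11, adjusted p = 0.0429). Gkn3 was at 0.618, 0.527 and 1.15 FPKM by day and 2.50, 1.58 and 2.78 FPKM at night (0.89 ± 0.16, adjusted p = 0.0342). Id3 (chr4:136143822-136145392), a partner that keeps helix-loop-helix factors off DNA, was at 19.0, 20.5 and 19.9 FPKM by day and 29.6, 28.2 and 27.7 FPKM at night (0.50 ± 0.07, adjusted p = 0.0119). None of these 4 overlapped. Crip1 and Id3 were called whichever library was left out, at an adjusted p of up to 0.0450 and 0.0492. Mgp, Gkn3, Timp3 and Efemp2 were called in 7, 7, 7 and 3 of the 12 fits without 1 library, with adjusted p up to 0.0786, 0.110, 0.0788 and 0.117.

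Choroid plexus, the epithelium of the ventricles that makes cerebrospinal fluid, can come along with dissected hippocampus. All 16 of its genes tested had a positive difference and 14 had an unadjusted p under 0.05 (15.1% of all genes tested had one, 10.3% with night higher and 4.79% with night lower), but none was called. Ttr, its most abundant transcript, was at 786, 55.3 and 1724 FPKM by day and 2901, 1832 and 2023 FPKM at night. Day DKO replicate 2 was thus far below the rest. Kcnj13, a potassium channel of this epithelium, was at 2.28, 0.351 and 5.11 FPKM by day and 8.50, 6.07 and 8.54 FPKM at night (1.52 ± 0.43, adjusted p = 0.146). Folr1, the folate receptor, differed by 1.45 ± 0.44 (adjusted p = 0.166), and Clic6 by 1.53 ± 0.52 (adjusted p = 0.211). The summed list was 887, 79.5 and 1890 FPKM in Day DKO and 3180, 2017 and 2235 FPKM in Night DKO, with 1188 to 3316 FPKM in WT. The median difference of the list was 0.97, and 0.56 without Day DKO replicate 2.

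With the mean level of the choroid plexus genes as a covariate, 12 of the 38 genes were still called, among them Dbp, Nr1d1, Nr1d2, Ciart, Rbm3, Tspan4, Coq10b and Fahd2a on the higher side and Arntl, Fabp7, Akt2 and Rbm28 on the lower side. Crip1 differed by 0.71 (adjusted p = 0.0617) and Mgp by 0.95 (adjusted p = 0.115) in that fit. Without Day DKO replicate 2, 12 of the 23 genes higher at night and 7 of the 15 lower at night were still called. In that fit Crip1 differed by 0.81 (adjusted p = 0.0162) and Mgp by 1.00 (adjusted p = 0.0504).

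**Figure D2:**
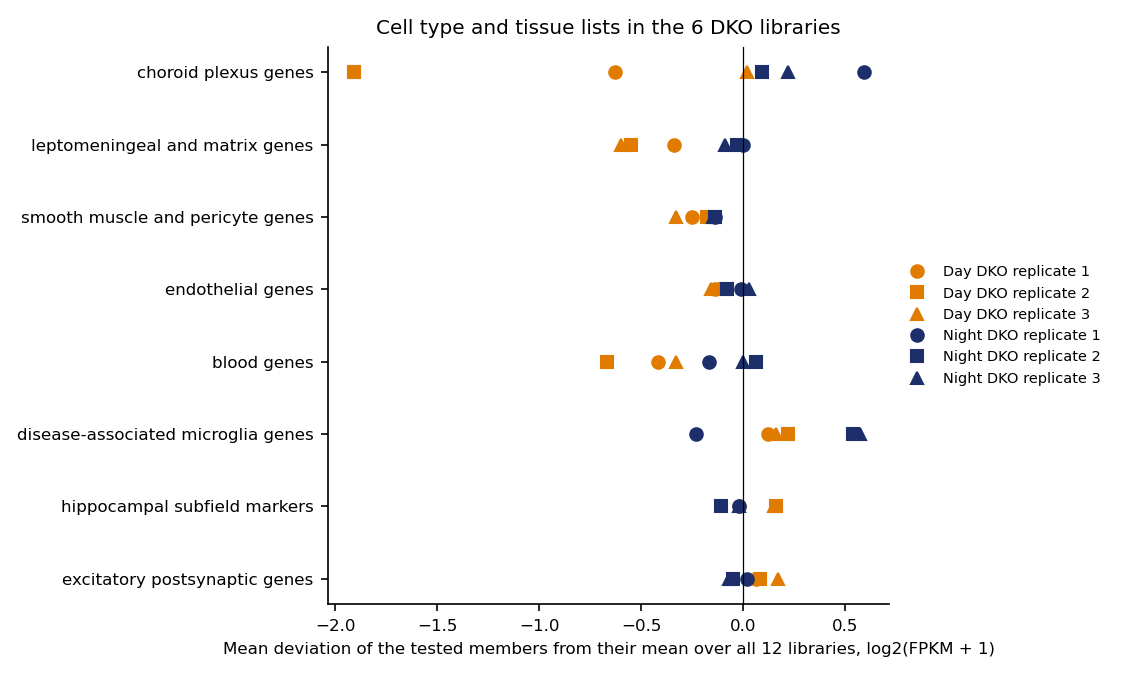
Mean deviation of the tested members of 8 lists from their mean over all 12 libraries (horizontal axis, log2(FPKM + 1)) for each DKO library (orange for day, dark blue for night; the shape marks the replicate number). Day DKO replicate 2 lies at -1.91 for choroid plexus genes, and the Day DKO libraries lie at -0.34 to -0.60 for leptomeningeal and matrix genes against -0.09 to 0.00 in Night DKO.

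No gene was called in the lists of endothelial, smooth muscle and pericyte, and blood genes. The called basement membrane gene Col4a1, described below, is outside these lists. Of 14 endothelial genes none was called (4 at an unadjusted p under 0.05) and 5 were higher without overlap; Slco1a4, a transporter of the blood-brain barrier, was at 2.88, 3.19 and 3.43 FPKM by day and 4.48, 4.48 and 4.96 FPKM at night (0.44, adjusted p = 0.0608). Of 13 smooth muscle and pericyte genes 6 were higher and 1 lower without overlap, with a median of 0.07. All 5 blood genes tested had a positive difference, 3 of them without overlap and 3 at an unadjusted p under 0.05, with a median of 0.43 (0.62 in WT). The listed blood genes, tested or not, summed to 90.6 to 110 FPKM in Day DKO and 116 to 159 FPKM in Night DKO. Of all genes tested, 12.9% were higher and 6.44% lower without overlap. An unadjusted p under 0.05 (limma) was found in 15.1% of all genes tested, and a positive difference in 58.7%. The part of vessels, blood and meninges in the calls was not tested.

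Fabp7 (chr10:57784923-57788450), the brain fatty acid binding protein of astrocytes and neural progenitors and a transcript known to cycle in brain, had the largest difference on the lower side. It was at 29.3, 33.6 and 28.8 FPKM by day and 12.5, 14.3 and 12.1 FPKM at night, 2.36-fold higher by day in the mean. The groups were far apart. The difference was -1.18 ± 0.11 (adjusted p = 0.000196), and -0.51 in WT, where the means were 21.5 ± 0.202 FPKM by day and 14.9 ± 2.78 FPKM at night. Again the 3 Day DKO libraries lay beyond all other 9. The interaction was -0.67 (adjusted p = 0.435). Of 13 neural stem cell and neurogenesis genes, Fabp7 was the only one called, with a list median of 0.00, and of 16 astrocyte markers none was called (3 at an unadjusted p under 0.05), with a median of -0.01.

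Akt2 (chr7:27591552-27640826), a kinase of insulin signalling, was at 9.58, 10.7 and 10.1 FPKM by day and 6.75, 6.99 and 6.71 FPKM at night (-0.51 ± 0.06, adjusted p = 0.00152). It was the only gene of the 38 for which Day DKO lay above and Night DKO below all other libraries, with 7.14 to 8.89 FPKM in WT. Of 30 genes of insulin and PI3K-AKT signalling it was the only one called, and the list median was 0.05. Rbm28 (chr6:29123573-29164724), a nucleolar protein needed to assemble ribosomes, was at 5.89, 6.03 and 6.01 FPKM by day and 3.64, 3.57 and 4.07 FPKM at night (-0.55 ± 0.06, adjusted p = 0.00109). It too was the only gene called among 30 nucleolar ribosome assembly genes, whose median was 0.03. Rbm45, an RNA-binding protein, was at 7.62, 8.84 and 8.97 FPKM by day and 5.86, 6.14 and 5.63 FPKM at night (-0.46 ± 0.07, adjusted p = 0.0159). Its WT means were 6.52 ± 0.240 FPKM by day and 6.66 ± 0.550 FPKM at night. Akt2 and Rbm28 were called whichever library was left out, and Rbm45 in 9 of 12 such fits (adjusted p up to 0.0743, without Night DKO replicate 3).

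Genes induced late after neuronal activity mostly had lower values at night in DKO. Of 14 tested, 2 were called lower and none higher, against 0.118% and 0.181% of all genes tested. A negative difference was found in 11, whereas 58.7% of all genes had a positive one. The list median was -0.25, against 0.17 in WT. At an unadjusted p under 0.05 (limma), 7 were lower and 1 higher, against 4.79% and 10.3% of all genes. Without overlap, 6 were lower and 1 higher, against 6.44% and 12.9%. Vgf (chr5:137025301-137033351), the precursor of secreted peptides, was at 33.3, 33.9 and 37.5 FPKM by day and 27.8, 27.0 and 25.2 FPKM at night (-0.37 ± 0.06, adjusted p = 0.0212). Homer1 (chr13:93303757-93405129), a scaffold of the postsynaptic density, was at 14.7, 12.9 and 14.4 FPKM by day and 10.6, 10.6 and 11.1 FPKM at night (-0.35 ± 0.06, adjusted p = 0.0436). Bdnf, the neurotrophin, was at 4.89, 4.87 and 5.11 FPKM by day and 3.74, 3.08 and 4.08 FPKM at night (-0.37, adjusted p = 0.0786). For all 3 genes every Day DKO library was above every Night DKO library. The summed list was 244 to 262 FPKM in Day DKO, 217 to 225 FPKM in Night DKO, 185 to 205 FPKM in Day WT and 195 to 210 FPKM in Night WT. Vgf was called in 8 and Homer1 in 3 of the 12 fits without 1 library, with adjusted p up to 0.0798 and 0.146, both without Night DKO replicate 2. With the choroid plexus covariate neither was called, at differences of -0.42 for Vgf (adjusted p = 0.0687) and -0.39 for Homer1 (adjusted p = 0.115), no smaller than without it, while the list median was -0.15.

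Pcdh8, an activity-induced protocadherin, was at 17.8, 18.3 and 21.6 FPKM by day and 14.6, 13.9 and 14.0 FPKM at night (-0.41 ± 0.07, adjusted p = 0.0398). Gabra2, a subunit of the GABA-A receptor, fell from 9.19 ± 1.02 FPKM by day to 6.45 ± 0.282 FPKM at night (-0.45 ± 0.08, adjusted p = 0.0342). Rnf112, a brain ubiquitin ligase, fell from 62.7 ± 3.06 to 44.5 ± 1.82 FPKM (-0.49 ± 0.08, adjusted p = 0.0179), and Hectd2, a gene of the HECT ubiquitin ligase family, from 4.47 ± 0.213 to 3.16 ± 0.281 FPKM (-0.40 ± 0.07, adjusted p = 0.0371). The actin regulators Mical2 (28.6 ± 1.74 by day and 20.9 ± 1.64 FPKM at night, adjusted p = 0.0219) and Inf2 (5.13 ± 0.193 and 3.64 ± 0.154 FPKM, adjusted p = 0.00603) were also lower. Inf2 was called whichever library was left out. Mical2, Rnf112, Pcdh8, Gabra2 and Hectd2 were called in 8, 8, 4, 4 and 4 of the 12 fits without 1 library, with the highest adjusted p at 0.116, 0.0936, 0.146, 0.0988 and 0.146, each without Night DKO replicate 2. Of 22 excitatory postsynaptic genes 20 had a negative difference (median -0.11), and none was called. At an unadjusted p under 0.05 (limma) 8 were lower at night, and 6 were lower without overlap. Of all genes tested 4.79% and 6.44% were, and 58.7% had a positive difference. In either direction, 15.1% of all genes tested had an unadjusted p under 0.05. Of 18 immediate early genes none was called (3 at an unadjusted p under 0.05), 11 had a positive difference and the median was 0.07 (0.19 with the choroid plexus covariate).

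Col4a1 (chr8:11198423-11312889) encodes a chain of the collagen of basement membranes. It was at 5.66, 6.30 and 5.37 FPKM by day and 4.27, 3.44 and 4.14 FPKM at night (-0.45 ± 0.08, adjusted p = 0.0342). Its partner Col4a2, whose annotated span shares 85 bases with that of Col4a1, was at 7.96, 7.27 and 6.76 FPKM by day and 5.28, 4.87 and 5.60 FPKM at night (-0.41, adjusted p = 0.0698). Both chains were lower at night without overlap, opposite to the matrix genes named above, and Col4a1 was called in 6 of the 12 fits without 1 library (adjusted p up to 0.129). Dpy19l3, a mannosyltransferase, had the smallest difference on the lower side (-0.32 ± 0.06, adjusted p = 0.0463) and was called in 1 of those 12 fits, with adjusted p up to 0.118 (without Night DKO replicate 1). On the higher side, Necab3, a calcium-binding protein (3.5 ± 0.277 by day and 5.49 ± 0.387 FPKM at night, adjusted p = 0.0429), and Slc5a5, the sodium iodide symporter (3.52 ± 0.249 and 5.36 ± 0.903 FPKM, adjusted p = 0.0463), were called in 4 and 1 of them, with adjusted p up to 0.146. The 3 other genes called were higher at night. These were Fmo2 and Rilp, both at 1.10 FPKM or less in every DKO library, and Use1, with the smallest difference on that side (0.34).

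**Figure D3:**
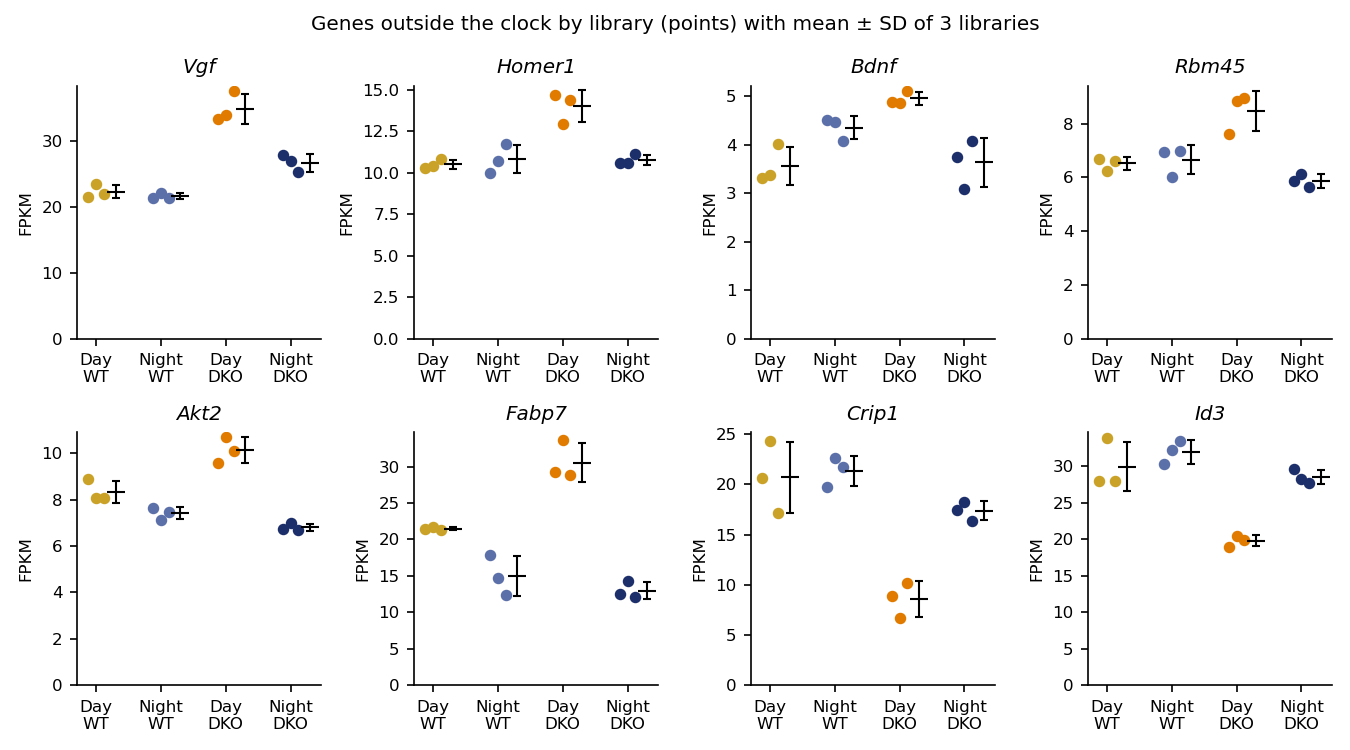
FPKM (vertical axes, starting at 0) of 8 genes outside the clock loop in each library (points; colours mark the 4 groups) with the mean ± SD of 3 libraries (black). Day DKO lies above the other groups for Vgf, Homer1, Bdnf, Rbm45, Akt2 and Fabp7 and below them for Crip1 and Id3.

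The lists of glucocorticoid-responsive genes, endoplasmic reticulum chaperones, microglia, oligodendrocyte and myelin genes, cholesterol synthesis and gamma-secretase gave no call between night and day in DKO without scaling (limma). At an unadjusted p under 0.05 (limma), 8 of 16 glucocorticoid-responsive genes were higher at night and 5 of 14 endoplasmic reticulum chaperones were lower. At that threshold 1 of 20 disease-associated microglia genes, 3 of 17 cholesterol synthesis genes and 2 of 7 gamma-secretase subunits were higher. Of 20 oligodendrocyte and myelin genes, 4 were higher and 3 lower. Over all genes tested the share was 15.1% (10.3% higher and 4.79% lower). Of 16 glucocorticoid-responsive genes, 15 had a positive difference, against 58.7% of all genes tested. Their median was 0.23 (0.42 in WT), which became 0.14 without Night DKO replicate 1. Dusp1, a phosphatase, was at 8.0, 6.36 and 3.82 FPKM by day and 9.28, 11.8 and 10.9 FPKM at night (0.77, adjusted p = 0.0962), and Plin4, a lipid droplet protein, at 0.923, 1.10 and 0.368 FPKM and 2.17, 1.65 and 2.37 FPKM (0.79, adjusted p = 0.0800). Both were higher in each night library than in any day library. Of 14 endoplasmic reticulum chaperones 7 had a positive and 7 a negative difference, with a median of -0.04. Of these 14, 5 were lower without overlap (6.44% of all genes tested were), with Calr at -0.42 (adjusted p = 0.0621). After median-of-ratios scaling 2 of them, Calr and Hyou1, were called lower (adjusted p = 0.0388 and 0.0494). The 20 disease-associated microglia genes had a median of 0.11, which became 0.38 without Night DKO replicate 1 and 0.21 with the choroid plexus covariate. Medians were 0.00 for 12 homeostatic microglia genes, 0.01 for 20 oligodendrocyte and myelin genes, 0.00 for 17 cholesterol synthesis genes and 0.11 for 7 gamma-secretase subunits. The series title names long noncoding RNA. Of 14 genes with that biotype that were tested, none was called (limma), and 2 had an unadjusted p under 0.05.

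Scaling by the median of ratios sets the typical gene to no change. The size factors of the Day DKO libraries were 0.9834, 1.012 and 0.9983 and those of the Night DKO libraries 1.037, 1.002 and 1.017. Scaling moved the median difference of all genes from 0.023 to 0.000 and the share of positive differences from 58.7% to 49.8%. With it, 69 genes (0.544%) were called, 27 (0.213%) higher and 42 (0.331%) lower at night, so the share of calls on the higher side went from 60.5% to 39.1%. Of the 38 genes, 36 were called with scaling too. Necab3 (adjusted p = 0.0624) and Slc5a5 (adjusted p = 0.0519) were not. None of the 38 changed sign. The excess of lower calls did not hold for each set of libraries: with scaling and 1 DKO library left out, it remained in 2 of 6 fits. The higher and lower calls numbered 16 and 27 when Day DKO replicate 1 was dropped and 17 and 19 when Night DKO replicate 3 was. They numbered 16 and 15 or 18 and 16 on dropping Day DKO replicate 2 or 3, and 30 and 27 or 12 and 10 on dropping Night DKO replicate 1 or 2.

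The 33 genes called after scaling alone were 6 higher and 27 lower at night, with differences of 0.21 to 0.61 in size. Those lower at night included neuronal genes. Neurod2, a transcription factor of excitatory neurons, was at 26.4, 32.5 and 31.5 FPKM by day and 22.9, 21.5 and 24.1 FPKM at night (-0.41 scaled, adjusted p = 0.0179). Rin1, a Ras effector, was at 9.86, 10.5 and 10.0 FPKM by day and 8.05, 8.17 and 8.13 FPKM at night (-0.31 scaled, adjusted p = 0.0100). Day and night did not overlap in either gene. The RNA-binding proteins Hnrnpc (-0.35) and Khdrbs3 (-0.36), the arginine methyltransferase Prmt2 (-0.31), the nuclease Exd2 (-0.36) and the zinc finger gene Zfp1 (-0.34) were also among those with the smallest p on that side, with scaled adjusted p of 0.0178, 0.0216, 0.0232, 0.0298 and 0.0152. Bdnf, Calr, Hsph1 and Col4a2 also passed after scaling, at 0.0494, 0.0388, 0.0388 and 0.0388.

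The 6 genes called higher after scaling alone were led by the mitochondrial isocitrate dehydrogenase Idh2, at 4.56, 5.65 and 4.70 FPKM by day and 7.21, 6.95 and 7.0 FPKM at night (0.41 scaled, adjusted p = 0.0374). Gsr, the glutathione reductase, was at 5.42, 5.40 and 5.48 FPKM by day and 7.18, 6.62 and 7.16 FPKM at night (0.29 scaled, adjusted p = 0.0494). Neither overlapped. The endothelin receptor Ednrb (0.28, adjusted p = 0.0415), the transporter Abcg2 (0.31, adjusted p = 0.0469), the retromer subunit Vps29 (0.23, adjusted p = 0.0494) and the Wnt receptor Fzd2 (0.61, adjusted p = 0.0494) were the others.

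**Figure D4:**
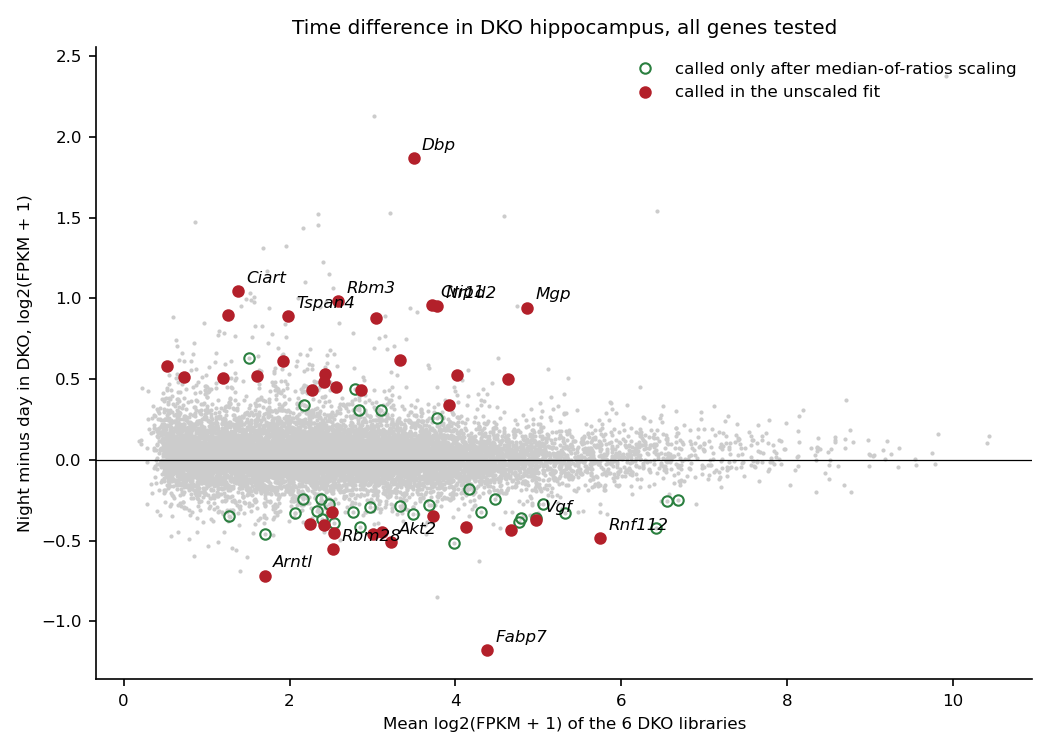
Night minus day in DKO on the log2(FPKM + 1) scale (vertical axis) against the mean level over the 6 DKO libraries (horizontal axis) for the 12689 genes tested (grey). The 38 genes called without scaling are red, and the 33 called only after scaling are open green circles, of which 27 lie below 0.

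How the DKO difference compared with WT was examined gene by gene. Of the 38 genes, 35 had the same sign in WT, against 63.2% of all genes tested, and 16 of the 38 were called there too. Of all 12689 genes tested, 212 (1.67%) were called between night and day in WT, against the 38 (0.299%) in DKO. The WT difference was smaller in 21 of the 23 genes higher at night and in all 15 lower at night; the genes were chosen for their DKO difference, a choice that favours a smaller one in WT. The exceptions were Per2 (0.43 in DKO and 0.44 in WT) and Rbm3 (0.98 and 0.99). All these differences, and the list medians given for WT, are without scaling. The median of all genes was 0.073 in WT and 0.023 in DKO. The 3 Day DKO libraries lay beyond all other 9 libraries for 14 of 23 and 13 of 15 genes, against 4.32% of all genes tested, and the 3 Night DKO libraries for 2 and 1, against 1.25%. These counts carry the same selection. By the test of the difference itself, no gene was called (limma, adjusted p of at least 0.396). An unadjusted p under 0.05 was found for 1099 genes (8.66%), 22 of the 38 among them. The interaction includes the DKO difference by which the 38 were chosen, which favours a small p, so nothing is read from the 22. The called genes with the smallest interaction p were Crip1 (0.91), Rbm45 (-0.49), Arntl (-0.42), Slc5a5 (0.60) and Fabp7 (-0.67), at an adjusted p of 0.396 for each but Fabp7. Crip1 was at 20.7 ± 3.51 FPKM in Day WT and 21.3 ± 1.51 FPKM in Night WT, above the 17.4 ± 0.955 FPKM of Night DKO, and its Day DKO level of 8.57 ± 1.77 FPKM lay below all 3 other groups.

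**Figure D5:**
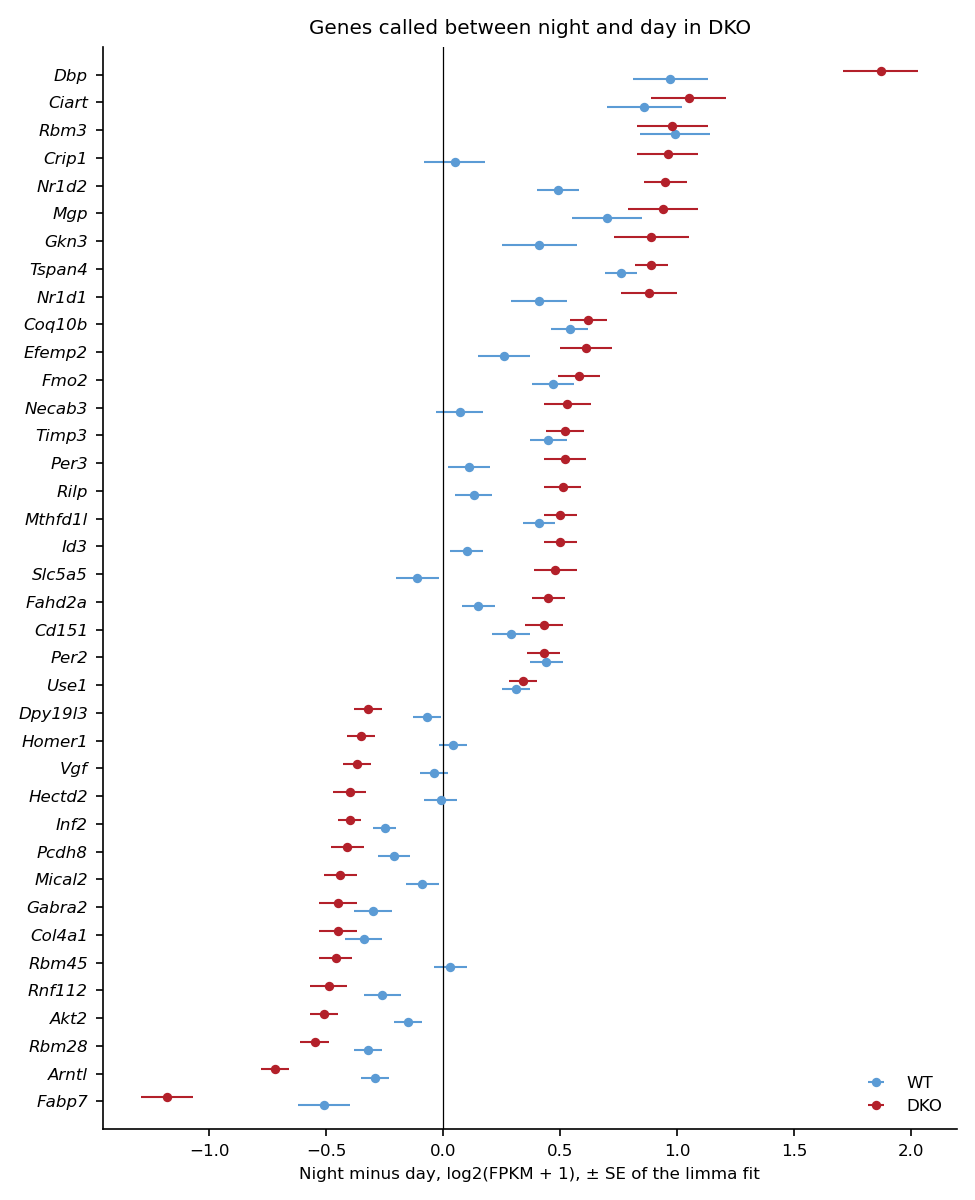
Night minus day on the log2(FPKM + 1) scale (horizontal axis, ± SE of the limma fit) in DKO (red) and WT (blue) for the 38 genes called in DKO. The WT value lies nearer to 0 than the DKO value for 36 of 38 genes.

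The genes whose levels over the 6 DKO libraries ran most like Dbp were sought among 11066 genes by Pearson correlation, as a description. The libraries share the day and night split, which gives any gene with a clean split a high value. The highest were Vps25 (0.996), Ap3m1 (0.991), Ddx55 (0.989), Clu (0.987) and Vasp (0.987), and among the lowest were Ccdc71l (-0.988), Ubash3b (-0.987), Slc20a2 (-0.986) and Mpdz (-0.986). None of these 9 was called without scaling, and their time differences were 0.07 to 0.28 and -0.19 to -0.29.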

How the data were processed

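Hippocampal RNA was measured in 12 libraries (4 groups of 3). Per the labels' protocols, stranded TruSeq libraries were made from total RNA after Ribo-Zero Gold removal of ribosomal RNA. For each library the authors deposited FPKM of 21878 genes, a unit read from the values. The build is GRCm38.p6, per the submitters' processing notes. Aligner, quantifier and annotation are not given there. Without counts the depth is unknown, and counting error cannot be given.

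Values were taken as log2(FPKM + 1), which shrinks differences of genes near or under 1 FPKM. The 12689 genes with at least 0.5 FPKM in at least 3 libraries were fitted with limma 3.58.1 in R 4.3.3 (1 mean per group over all 12 libraries, variance prior with an intensity trend, 2-sided). A gene was called where its p, adjusted by Benjamini-Hochberg over the whole table, was under 0.05, and every adjusted p comes from such a fit. All 12 libraries were used, since 6 leave 4 residual degrees of freedom. Median-of-ratios scaling was run beside the unscaled fit, and 29 alternatives in all were tried. The code was tested on simulated data. The interaction is the DKO difference minus the WT difference. Gene IDs of 21727 genes matched RefSeq, and 27 symbols turned into dates were restored.

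The comparison and the 33 gene lists were chosen with earlier results of these data known. The list counts without single libraries and with the covariate were added after the data were seen. Genes named were Psen2, all clock genes tested, called genes with a mean log2 of at least 1 (up to 20 per direction, largest first), the 8 smallest p per direction among genes called only after scaling, up to 3 members per list with the smallest p, the 5 smallest interaction p and the 5 genes at each end of the likeness to Dbp. Some genes that this rule takes are not reported here. Fmo2, Rilp, Use1, Col4a2, Ttr, Lum, Dcn, Slc6a13, Prox1 and Wfs1 were named beside that rule, the last 6 as defining markers. Motifs were searched in 250 bases before each RefSeq start.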

Additional observations from a re-analysis of the deposited data

Results flagged for a closer look

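Without scaling, the time difference of 3 genes chosen by the naming rule ran in opposite directions in the genotypes, with no overlap between day and night in either. For Slc5a5, called higher at night in DKO (0.48), the WT difference was -0.11, and DKO exceeded WT by 0.60 (interaction at adjusted p = 0.396). For Bdnf the difference was -0.37 in DKO and 0.23 in WT, a gap of -0.60 (adjusted p = 0.396). For Zfp1 it was -0.32 in DKO and 0.20 in WT, a gap of -0.51 (adjusted p = 0.396), the smallest interaction p of all genes. The limma test of the difference therefore did not pass adjustment for any of the 3. Slco3a1, called only after scaling and named here after its values were seen, also ran in opposite directions without overlap (-0.24 in DKO and 0.10 in WT, interaction at adjusted p = 0.435). Bdnf and Zfp1 too were called only with scaling, whereas the differences given here are without it. The size factors were 0.9423 to 0.9791 in Day WT and 1 to 1.057 in Night WT. Scaling therefore lowers night against day in WT, and the overlap of scaled values was not examined. How many of all genes tested run in opposite directions without overlap was not counted. Groups of 3 libraries were too small to be screened for single stray values.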

How the results depend on the processing

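All 29 alternatives kept the sign of the 35 called genes named. The 38 calls (23 higher, 15 lower) became 69 (42 lower) with median-of-ratios scaling, 63 (39 lower) with quantile normalization, 21 (13 and 8) with no filter on low values and 15 (10 and 5) with the choroid plexus covariate. With only the 6 DKO libraries there were 26, of which 5 lower. Leaving out 1 library gave 19 to 55 calls (13 to 33 higher, 5 to 22 lower), and with scaling 22 to 57 (12 to 30 higher, 10 to 27 lower). The interaction gave 0 to 1 call, Timmdc1 without Day WT replicate 3. The causes were not tested. Smaller pseudocounts (39 calls each), a minimum of 1 FPKM (47), quality weights (35) and a prior without a trend (33) stayed within 1.5 times of 38.

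The replicate block gave 48 calls, 32 of them higher. Same-numbered Day and Night DKO libraries correlated at 0.0516, 0.0371 and 0.0332 in their deviations, none over the limit of 0.1, so they were taken to share only a number. Each Day library correlated best with its own number, but below that limit, and whether the libraries were paired is not known from the design.

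Signs turned in 2 of the genes named, neither called. Npas2 (0.04) lay at -0.01 with quantile normalization, -0.06 with the choroid plexus covariate and -0.06 to 0.19 without 1 library. With scaling too it lay at -0.07, -0.06, -0.05 and -0.04 in 4 such fits. Rorb (-0.02) lay at -0.09 to 0.06 without 1 library, and at 0.02 and 0.04 with scaling in 2 such fits. FPKM without counts leaves depth unknown, so no counting interval can be given for genes near 1 FPKM, such as Ciart and Gkn3. Only 1 morning and 1 evening hour were sampled, so phase and amplitude cannot be told apart.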

Other observations

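Markers of hippocampal subfields gave no call (5 at an unadjusted p under 0.05), and 10 of 15 had a negative difference, with a median of -0.19 (0.04 in WT), which was -0.07 with the choroid plexus covariate. C1ql2, a synaptic organiser of dentate granule cells, was at 16.0, 28.1 and 27.5 FPKM in Day DKO and 11.7, 14.1 and 18.8 FPKM in Night DKO, which overlapped (-0.63, adjusted p = 0.197, limma with Benjamini-Hochberg adjustment). Zbtb20, a transcription factor of hippocampal projection neurons, was at 7.87, 7.15 and 7.86 FPKM and 6.22, 5.66 and 6.66 FPKM (-0.27, adjusted p = 0.205). The kainate receptor gene Grik4, a marker of CA3, was at 3.93, 3.84 and 4.77 FPKM and 3.47, 3.39 and 3.02 FPKM (-0.27, adjusted p = 0.195). Neither of the last overlapped.

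In the oligodendrocyte lineage, 10 of 20 genes had a negative difference and none was called. Olig1, which is active early in the lineage, was at 30.4, 33.9 and 28.1 FPKM by day and 27.2, 23.0 and 26.5 FPKM at night (-0.26, adjusted p = 0.185), while Aspa, the aspartoacylase of mature oligodendrocytes, was at 2.70, 2.93 and 2.58 FPKM and 3.96, 2.96 and 3.85 FPKM (0.29, adjusted p = 0.229). The lineage gene Olig2 (-0.46, adjusted p = 0.229) overlapped between day and night.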
